A study of Mus musculus with 8 samples.

Results

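The serpin family of the mouse liver was described from 59 protein-coding genes, chosen by name alone from the genes of the count table with a symbol of the form Serpin, a clade letter from a to i and a number, without Serping1. They were 59 of 46078 genes in the table, and 26 of them were among the 14654 genes with enough reads for a test. Livers of 5 WT and 3 Rbfox2 KO mice were compared by RNA-seq, to ask how transcripts differ when the splicing regulator RBFOX2 is lost from hepatocytes. All mice drank water with 30% fructose for 22 weeks, which the methods of the study start at 8 weeks of age, in male mice unless stated otherwise, and the livers were taken after fasting. WT mice carried Rbfox2 loxP/loxP alleles without Cre, and Rbfox2 KO mice carried the same alleles with Cre driven by the albumin promoter, so both groups shared the floxed alleles and only hepatocytes should lose the gene. Other liver cells keep Rbfox2, and each library is 1 liver.

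Serpins are a family of proteins that fold around an exposed reactive centre loop. In the inhibitory members a target protease cuts this loop and is then trapped in an inactive complex, and the residue just before the cut, called P1, largely sets which protease is caught. The liver secretes most plasma serpins, among them alpha-1-antitrypsin (Serpina1 genes in the mouse), antithrombin (Serpinc1), heparin cofactor II (Serpind1) and alpha-2-antiplasmin (Serpinf2), while other members carry hormones, assist collagen folding or act inside cells.

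Humans have 1 alpha-1-antitrypsin gene, and the mouse reference genome has a group of close copies whose loops differ. The coding stretches of the loop are shown for the 5 copies with reads, because these copies carried most of the serpin transcripts described here. They are written 5′ to 3′ from GENCODE release M21 on GRCm38, each within 1 coding exon, and the capitals mark the P1 codon.
Serpina1a (chr12:103853762-103853830, minus strand): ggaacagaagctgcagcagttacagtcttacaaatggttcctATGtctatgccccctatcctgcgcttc
Serpina1b (chr12:103728329-103728397, minus strand): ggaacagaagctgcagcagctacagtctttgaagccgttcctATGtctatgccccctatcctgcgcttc
Serpina1c (chr12:103895099-103895167, minus strand): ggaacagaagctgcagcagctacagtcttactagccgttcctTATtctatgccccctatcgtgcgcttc
Serpina1d (chr12:103763767-103763835, minus strand): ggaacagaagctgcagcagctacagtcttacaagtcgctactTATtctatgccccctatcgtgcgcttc
Serpina1e (chr12:103947105-103947173, minus strand): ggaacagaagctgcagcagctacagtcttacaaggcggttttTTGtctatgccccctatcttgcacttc

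The P1 codon was ATG in Serpina1a and Serpina1b, TAT in Serpina1c and Serpina1d, and TTG in Serpina1e, so the 5 copies fell into 3 kinds. Over the 1239 coding bases, the 10 pairs of copies were 96.3% to 98.5% identical, whereas over the 69 bases of the loop they were 85.5% to 94.2% identical. The loop was the less conserved stretch.

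Total counts ran from 24829693 to 37823155 per library, and factors of trimmed mean of M-values (TMM) scaling from 0.821 to 1.29. Levels are given as CPM, the usual count scaled to library size, with these factors applied. Rbfox2, the deleted gene, had 13.96 to 23.2 CPM in WT and 6.84 to 12.4 CPM in Rbfox2 KO, with no overlap between groups. Its log2 fold change was -1.03 ± 0.21 (SE). By the edgeR quasi-likelihood test with Benjamini-Hochberg adjustment it did not pass (adjusted p = 0.328), so a change of this size went uncalled here. The 7 hepatocyte markers, albumin among them, summed to 72287 to 79408 CPM in WT and 65466 to 79056 CPM in Rbfox2 KO. Rbfox2 KO 1 stood apart: 14 pancreatic acinar genes summed to 493 CPM there and to 4.88 to 17.9 CPM in the other 7 livers. The 10 skeletal muscle genes were at 238 CPM there, and at 293 and 384 CPM in WT 4 and WT 5. The 14 male-biased, growth hormone-responsive genes were at 15473 CPM there against 35981 to 102778 CPM elsewhere, with WT 3 the highest. The 8 female-biased, growth hormone-responsive genes summed to 15.1 CPM in Rbfox2 KO 1, inside the WT range of 4.50 (WT 3) to 98.2 CPM. They were at 45.4 and 8.56 CPM in Rbfox2 KO 2 and 3. Without Rbfox2 KO 1 the log2 fold changes of the 26 tested serpin genes lay between -0.61 and 0.33 with a median of 0.03. Of these, 14 were above 0 and 12 below, and single values stand beside the genes that moved most.

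Serpin transcripts made up a few percent of the liver's counted reads, and their levels did not separate the genotypes. Serpin genes took 2.71% to 3.34% of counts in WT and 3.24% to 3.45% in Rbfox2 KO livers. Of the 26 serpin genes tested, 0 passed an adjusted p of 0.05 by the edgeR quasi-likelihood test with Benjamini-Hochberg adjustment, where 0% of all tested genes passed. At an unadjusted p of 0.05 the count was also 0 of 26, where 4.74% of all tested genes passed (2.41% higher and 2.33% lower in Rbfox2 KO). The smallest unadjusted edgeR p was 0.170, for Serpinb6a. DESeq2 also passed 0 serpin genes, adjusted or unadjusted, where it passed 0.403% and 4.93% of all genes, and its smallest unadjusted p was 0.160, for Serpina3m. The CPM of 0 serpin genes were without overlap between the groups, against 3.71% of all tested genes.

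The differences of the serpin genes were small. The log2 fold change of Rbfox2 KO over WT lay between -0.55 (Serpinb1a) and 0.19 (Serpinb6a), with 17 genes above 0 and 9 below, where 50.2% of all tested genes were above 0. The median was 0.06, beside 0.000953 over all tested genes, and the median size regardless of sign was 0.107 beside 0.113. Within a log2 step of 0.2 of no change were 24 of 26 serpin genes, against 70.5% of all tested genes. The 95% interval lay within 0.5 of 0 on the log2 scale for 12 serpin genes and within 1 for 24, and the interval reached past 1 on 1 side for the remaining 2 (Serpina7 and Serpinb1a). With library totals in place of TMM factors, the median of all tested genes moved to 0.12 and that of the serpin genes to 0.15. On that scale 23 serpin genes were above 0 and 3 below, where 73.8% of all tested genes were above 0.

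**Figure D1:**
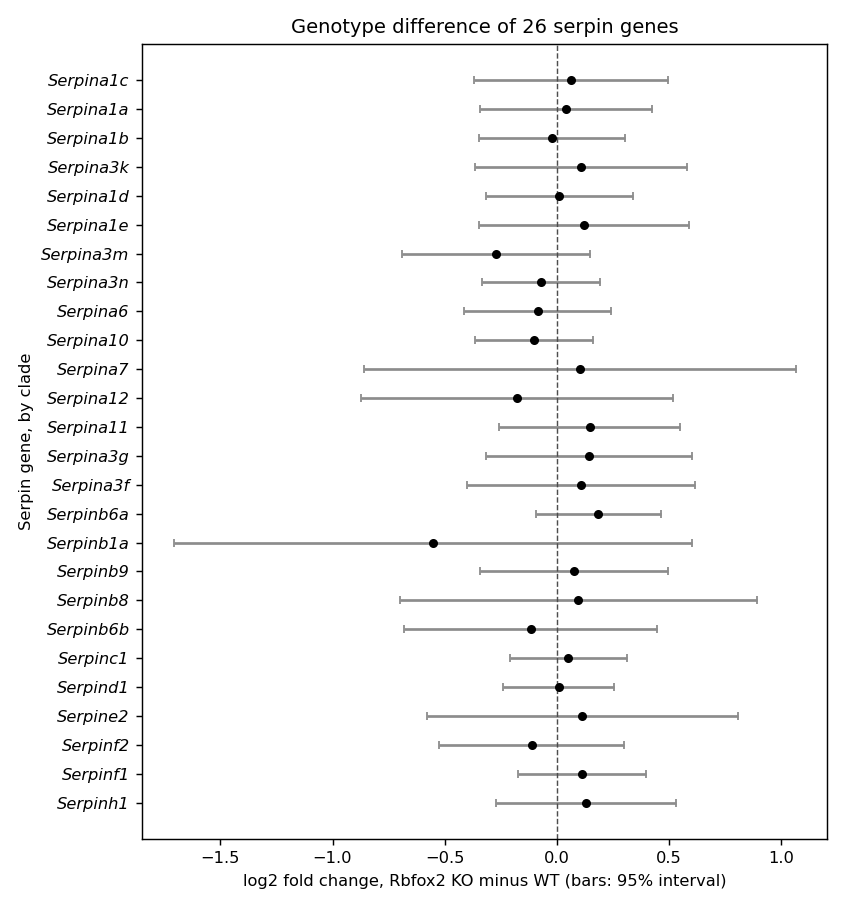
Log2 fold change of Rbfox2 KO (n = 3) over WT (n = 5) on the x axis for the 26 tested serpin genes, ordered by clade; points are edgeR estimates and bars their 95% intervals. Every bar crosses 0, and the widest belong to Serpinb1a and Serpina7.

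Expression was concentrated in few members. Clade A, the alpha-1-antitrypsin-like serpins, held 92.6% of the serpin CPM, and the 5 Serpina1 genes alone held 74.4%. Antithrombin (clade C) held 3.86%, the 2 clade F genes 2.46% and heparin cofactor II (clade D) 0.973%. The 26 genes of clade B, most of which act inside cells, held 0.105% together. The 10 most abundant members held 97.2%.

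**Figure D2:**
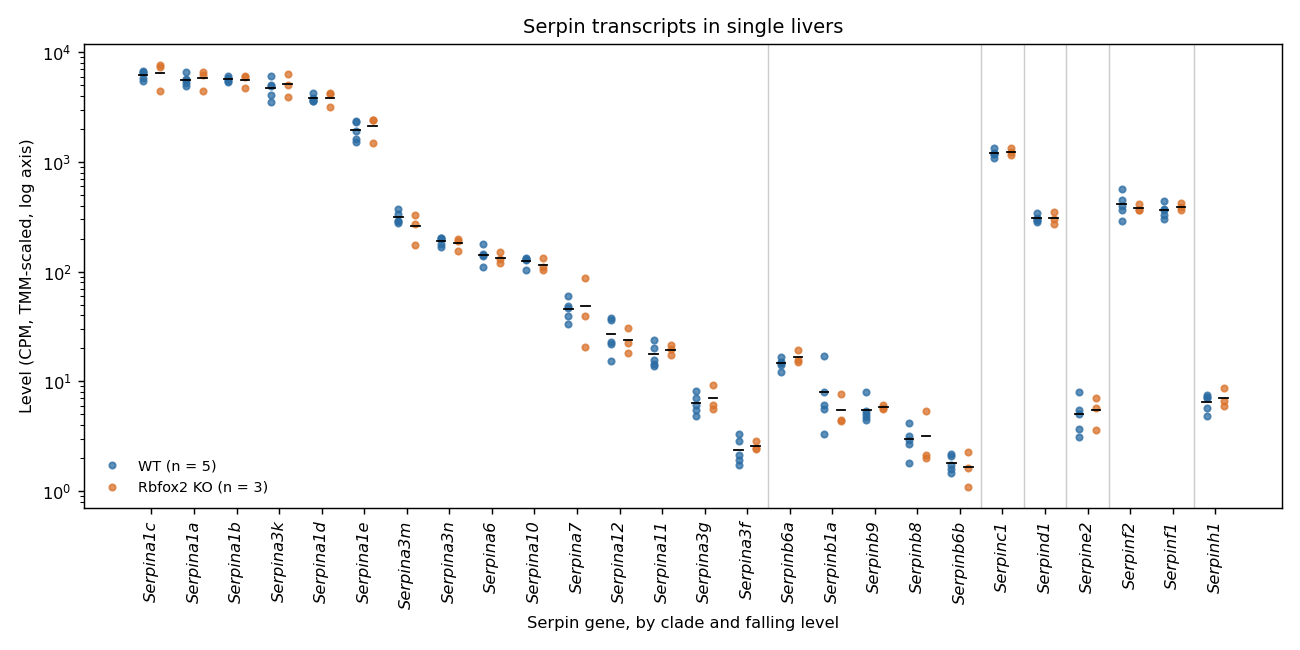
Level of the 26 tested serpin genes in each liver, in TMM-scaled CPM on a log axis, ordered by clade and falling level; points are single livers and black lines group means. The 6 genes at the left, Serpina1a to Serpina1e and Serpina3k, lie above all other members, and the groups overlap for each gene.

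Among the alpha-1-antitrypsin copies, Serpina1a (ENSMUSG00000066366, chromosome 12, 103853589 to 103863562, minus strand) had 4948, 6561, 5606, 5758 and 5237 CPM in WT 1 to 5 and 4481, 6664 and 6196 CPM in Rbfox2 KO 1 to 3. Its mean was 5622 ± 613 CPM over the WT livers (SD, n = 5) and 5780.1 ± 1149 CPM over the Rbfox2 KO livers (SD, n = 3), with log2 fold change 0.04 ± 0.17 (SE), 95% interval -0.34 to 0.42. Rbfox2 KO 1 was the lowest and Rbfox2 KO 2 the highest of the 8 livers, so the Rbfox2 KO group enclosed the WT values. Serpina1b (ENSMUSG00000071178, chromosome 12, 103728156 to 103830373, minus strand) had 5780.0, 6132, 5338, 5736 and 5508 CPM in WT 1 to 5 and 4722, 6128 and 5998 CPM in Rbfox2 KO 1 to 3, with log2 fold change -0.02 ± 0.15 (SE), 95% interval -0.34 to 0.30. It varied least among WT livers of all tested serpins, by 5.28% of its mean (coefficient of variation, n = 5).

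Serpina1c (ENSMUSG00000079015, chromosome 12, 103894926 to 103904887, minus strand) had 5479, 6429.8, 6698, 6586 and 5791 CPM in WT 1 to 5 and 4419, 7663 and 7326 CPM in Rbfox2 KO 1 to 3. Its mean of 6197 ± 533 CPM over the WT livers (SD, n = 5) and 6469 ± 1784 CPM over the Rbfox2 KO livers (SD, n = 3) gave log2 fold change 0.06 ± 0.20 (SE), 95% interval -0.37 to 0.50. Rbfox2 KO 1 lay below all WT livers and the other two Rbfox2 KO livers above all of them. Serpina1d (ENSMUSG00000071177, chromosome 12, 103763594 to 103773592, minus strand) had 3585, 4263, 3869.9, 3689 and 3627 CPM in WT 1 to 5 and 3164, 4133 and 4220.1 CPM in Rbfox2 KO 1 to 3, with log2 fold change 0.01 ± 0.15 (SE), 95% interval -0.32 to 0.34. Serpina1e (ENSMUSG00000072849, chromosome 12, 103946931 to 103958975, minus strand) had 1638, 1906, 2322, 2355 and 1523 CPM in WT 1 to 5 and 1498, 2443 and 2418 CPM in Rbfox2 KO 1 to 3, with log2 fold change 0.12 ± 0.21 (SE), 95% interval -0.35 to 0.59. For Serpina1e the WT livers ranged more widely, with a coefficient of variation of 19.6%, and WT 3 and WT 4 were close to the 2 higher Rbfox2 KO livers. Without Rbfox2 KO 1 the log2 fold change was 0.27 for Serpina1c and 0.31 for Serpina1e.

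The mean proportions of the 5 copies differed little between the genotypes. Serpina1c made up 26.6% ± 1.14 of their summed CPM in WT (SD, n = 5) and 26.8% ± 2.32 in Rbfox2 KO (SD, n = 3). Serpina1b made up 24.6% ± 1.73 and 23.8% ± 1.75, and Serpina1a 24.1% ± 1.10 and 24.3% ± 0.522. Serpina1d made up 16.4% ± 0.646 and 16.2% ± 1.01, and Serpina1e 8.34% ± 1.31 and 8.82% ± 0.558. Single livers varied more, from 7.02% (WT 5) to 9.76% (WT 4) for Serpina1e. The group means of each copy were closer than 1 SD of the WT livers, and the ranges overlapped for all 5. These proportions rest on reads that may fit several copies: of all 100-base windows along the exons, the length of 1 read, 58.5% in Serpina1c, 42.8% in Serpina1a, 29.3% in Serpina1d, 14.8% in Serpina1b and 14.4% in Serpina1e occur without a mismatch in another gene. How such reads were counted is not given in the sources used here, so the split among the copies is uncertain. In the annotation Serpina1d also lies within the gene span of Serpina1b, on the same strand.

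The sixth coding copy, Serpina1f (ENSMUSG00000021081, chromosome 12, 103688044 to 103695529, minus strand), had 0 reads in all 8 livers, which allows up to 3 counts, or 0.0793 to 0.121 CPM, in a library. Its coding sequence was 58.7% to 59.5% identical to the other 5. The promoters of Serpina1a and Serpina1f are shown because both genes lie in 1 cluster, the first among the abundant copies and the second without reads. Both run from 250 bases before to 50 bases after the RefSeq start on GRCm38.p6, and the capitals in Serpina1a mark a run of 59 bases that the promoters of Serpina1a to Serpina1e share letter for letter.
Serpina1a (chr12:103863570-103863869, minus strand): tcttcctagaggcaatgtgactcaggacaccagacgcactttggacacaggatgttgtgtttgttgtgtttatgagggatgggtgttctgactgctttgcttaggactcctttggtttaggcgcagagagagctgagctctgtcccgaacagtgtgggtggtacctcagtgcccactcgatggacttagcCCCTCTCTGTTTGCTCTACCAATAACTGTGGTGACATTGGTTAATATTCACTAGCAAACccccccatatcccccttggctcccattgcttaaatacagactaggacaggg
Serpina1f (chr12:103695480-103695779, minus strand): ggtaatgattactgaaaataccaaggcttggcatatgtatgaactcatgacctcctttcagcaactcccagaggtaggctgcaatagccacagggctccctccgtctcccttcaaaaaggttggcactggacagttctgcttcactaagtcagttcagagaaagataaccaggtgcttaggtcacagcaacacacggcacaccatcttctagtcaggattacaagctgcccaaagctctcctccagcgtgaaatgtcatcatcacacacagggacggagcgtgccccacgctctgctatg

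The shared run begins 60 bases before the start in Serpina1a and 55 to 117 bases before it in the other 4 expressed copies, and the window of Serpina1f does not hold it. It includes the letters GTTAAT, part of the palindrome bound by the hepatocyte factor HNF1, and TGTTTGC, a core of the type bound by FOXA factors. With both strands searched, GTTAAT occurs in the promoter windows of 8.24% of 27025 genes and TGTTTGC in 5.76%. Of 52 serpin genes with a window, GTTAAT was found in 7 of 21 tested and 4 of 31 untested members, and TGTTTGC in 8 of 21 and 1 of 31, counts to which the 5 near-identical Serpina1 copies contribute 5 each. TATAAA was found in 2 of 21 tested and 13 of 31 untested members, beside 15.7% of all genes. Serpina3a to Serpina3c and Serpinb3a to Serpinb3d, which are 2 groups of neighbouring copies, are among those 13. CAAAGTCCA, an element of the type bound by HNF4, was in 0 serpin windows and in 0.555% of all genes. A match of letters is a description and does not show binding.

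The same cluster holds the mouse copies of alpha-1-antichymotrypsin, the Serpina3 genes, a second group of copies with diverged loops. The loop stretches of the 3 most abundant copies are shown for comparison, with capitals for the bases after the ninth codon, which hold most of the differences between the copies.
Serpina3k (chr12:104345269-104345340, plus strand): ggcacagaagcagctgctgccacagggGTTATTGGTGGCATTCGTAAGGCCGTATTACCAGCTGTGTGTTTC
Serpina3m (chr12:104393769-104393846, plus strand): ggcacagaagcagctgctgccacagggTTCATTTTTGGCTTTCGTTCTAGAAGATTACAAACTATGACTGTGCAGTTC
Serpina3n (chr12:104413448-104413525, plus strand): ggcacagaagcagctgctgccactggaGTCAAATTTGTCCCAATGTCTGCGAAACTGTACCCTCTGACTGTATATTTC

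Over their 1254 coding bases these 3 genes were 83.1% to 91.5% identical, so they were more diverged than the Serpina1 copies. Serpina3k (ENSMUSG00000058207, chromosome 12, 104338486 to 104346144, plus strand) was the most abundant gene outside Serpina1, with 4079, 3556, 6028, 4983 and 5056 CPM in WT 1 to 5 and 3917, 6376 and 5019 CPM in Rbfox2 KO 1 to 3. Its mean was 4740.5 ± 956 CPM over the WT livers (SD, n = 5) and 5104 ± 1231 CPM over the Rbfox2 KO livers (SD, n = 3), with log2 fold change 0.11 ± 0.21 (SE), 95% interval -0.37 to 0.58. WT 2 was the lowest and Rbfox2 KO 2 the highest liver.

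Serpina3m was at 279 to 373 CPM in WT and 177 to 331 CPM in Rbfox2 KO, with a log2 fold change of -0.27 ± 0.19 (SE, 95% interval -0.69 to 0.15). Rbfox2 KO 1 had the lowest value, and the other two Rbfox2 KO livers lay at 274 and 331 CPM. Its log2 fold change was -0.06 without Rbfox2 KO 1, and -0.48 without Rbfox2 KO 3 (unadjusted edgeR p of 0.0323, adjusted p of 0.835). Serpina3n, an acute phase transcript, was at 169 to 205 CPM in WT and 154 to 200.5 CPM in Rbfox2 KO (log2 fold change -0.07 ± 0.12 (SE, 95% interval -0.33 to 0.19)). Serpina3g, a copy known from lymphoid cells, was at 4.86 to 9.22 CPM over the 8 livers. Serpina3f (ENSMUSG00000066363, chromosome 12, 104214544 to 104221129, plus strand), its neighbour, had 3.32, 2.13, 1.93, 1.71 and 2.84 CPM in WT 1 to 5 and 2.86, 2.40 and 2.46 CPM in Rbfox2 KO 1 to 3, with log2 fold change 0.11 ± 0.23 (SE), 95% interval -0.40 to 0.62. Its Rbfox2 KO values lay inside the WT range, whose ends were WT 4 and WT 1. In the annotation the gene spans of Serpina3k and Serpina3m overlap and begin at the same base, and 4.85% and 6.09% of their 100-base windows are shared, so reads there are uncertain between the pair.

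Several clade A members transport hormones or act outside the blood. Serpina6 encodes corticosteroid-binding globulin and was at 110.5 to 177 CPM in WT and 119 to 153 CPM in Rbfox2 KO, with a log2 fold change of -0.09 ± 0.15 (SE, 95% interval -0.41 to 0.24). Serpina10, which inhibits factor Xa together with protein Z, was at 104 to 132 CPM in WT and 105 to 133 CPM in Rbfox2 KO (log2 fold change -0.10 ± 0.12 (SE, 95% interval -0.36 to 0.16)). Both were lowest in WT 5, and the groups overlapped for both.

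Serpina7, which encodes thyroxine-binding globulin and is the only clade A gene off chromosome 12 (it lies on chromosome X), had 39.7, 48.5, 46.5, 60.4 and 33.5 CPM in WT 1 to 5 and 87.0, 39.7 and 20.6 CPM in Rbfox2 KO 1 to 3. It is given in full because its values, once seen, ranged most in the Rbfox2 KO group, whose highest and lowest livers were also the highest and lowest of all 8. Its log2 fold change was 0.10 ± 0.42 (SE, 95% interval -0.86 to 1.07), and -0.61 without Rbfox2 KO 1. Serpina12 (vaspin, ENSMUSG00000041567, chromosome 12, 104028769 to 104044443, minus strand), known as an adipose tissue hormone, had 22.0, 15.4, 36.3, 37.9 and 22.8 CPM in WT 1 to 5 and 18.0, 30.9 and 22.6 CPM in Rbfox2 KO 1 to 3, with log2 fold change -0.18 ± 0.31 (SE), 95% interval -0.87 to 0.52. WT 3 and WT 4 were the highest and WT 2 the lowest. Serpina11 lay between 13.9 and 24.1 CPM over the 8 livers (log2 fold change 0.15 ± 0.18 (SE, 95% interval -0.26 to 0.55)), and 32.8% of its 100-base windows also occur in the gene model Gm28577.

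The inhibitors of clotting proteases varied little between livers. Serpinc1 (antithrombin, ENSMUSG00000026715, chromosome 1, 160978585 to 161005863, plus strand), which inhibits thrombin and factor Xa and is accelerated by heparin, had 1221, 1331, 1190.2, 1182 and 1082 CPM in WT 1 to 5 and 1156, 1238 and 1342 CPM in Rbfox2 KO 1 to 3. Its mean of 1201 ± 89.3 CPM over the WT livers (SD, n = 5) and 1245 ± 92.8 CPM over the Rbfox2 KO livers (SD, n = 3) gave log2 fold change 0.05 ± 0.12 (SE), 95% interval -0.21 to 0.31. Serpind1 (heparin cofactor II, ENSMUSG00000022766, chromosome 16, 17331371 to 17343575, plus strand), a thrombin inhibitor, had 309.5, 341, 287, 295 and 299 CPM in WT 1 to 5 and 273, 301 and 351 CPM in Rbfox2 KO 1 to 3, with log2 fold change 0.01 ± 0.11 (SE), 95% interval -0.24 to 0.26. The highest liver was above the lowest by 1.24-fold for Serpinc1 and 1.29-fold for Serpind1, and the groups interleaved for both.

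Clade F also consists of plasma proteins. Serpinf2 (alpha-2-antiplasmin, ENSMUSG00000038224, chromosome 11, 75431732 to 75439591, minus strand), the main inhibitor of plasmin, had 563, 455, 395, 362 and 293 CPM in WT 1 to 5 and 412, 369 and 367 CPM in Rbfox2 KO 1 to 3, with log2 fold change -0.11 ± 0.19 (SE), 95% interval -0.52 to 0.30. All 3 Rbfox2 KO values lay inside the WT range, whose ends were WT 1 and WT 5. Its neighbour Serpinf1 (pigment epithelium-derived factor, ENSMUSG00000000753, chromosome 11, 75409769 to 75422701, minus strand), which blocks vessel growth and inhibits no protease, had 438, 373, 365, 332 and 304 CPM in WT 1 to 5 and 389, 424 and 362 CPM in Rbfox2 KO 1 to 3, with log2 fold change 0.11 ± 0.13 (SE), 95% interval -0.17 to 0.40. WT 1 was again the highest and WT 5 the lowest.

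Members known mainly from other cells were near or under 20 CPM. In bulk liver RNA, fewer cells of a type and less RNA per cell cannot be told apart. Serpine2 (protease nexin 1, ENSMUSG00000026249, chromosome 1, 79794197 to 79861180, minus strand) had 3.10, 3.65, 7.98, 5.07 and 5.47 CPM in WT 1 to 5 and 3.64, 7.08 and 5.73 CPM in Rbfox2 KO 1 to 3, with log2 fold change 0.11 ± 0.31 (SE), 95% interval -0.58 to 0.81. WT 3 was highest and WT 1 lowest.

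Serpinh1 (HSP47, ENSMUSG00000070436, chromosome 7, 99345376 to 99353239, minus strand), the chaperone of collagen folding in the endoplasmic reticulum, had 4.80, 7.08, 5.73, 7.55 and 7.24 CPM in WT 1 to 5 and 8.69, 5.98 and 6.60 CPM in Rbfox2 KO 1 to 3, with log2 fold change 0.13 ± 0.18 (SE), 95% interval -0.27 to 0.53. Rbfox2 KO 1 was the highest liver, and without it the log2 fold change was -0.05. The 10 collagen genes listed as clients of Serpinh1 summed to 47.2 to 67.5 CPM in WT and to 128, 47.7 and 58.3 CPM in Rbfox2 KO 1 to 3, and the 8 markers of stellate cells and fibroblasts were likewise highest in Rbfox2 KO 1, at 267 CPM against 158 to 209 CPM in WT. The part of these cells in the Serpinh1 values was not tested.

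Most clade B serpins act inside cells, where many inhibit granule or lysosomal proteases. Serpinb6a (ENSMUSG00000060147, chromosome 13, 33917918 to 34002794, minus strand), an inhibitor of cathepsin G and related proteases, was the most abundant, with 16.9, 12.2, 14.7, 15.0 and 14.2 CPM in WT 1 to 5 and 19.2, 15.0 and 15.5 CPM in Rbfox2 KO 1 to 3. Its log2 fold change of 0.19 ± 0.13 (SE, 95% interval -0.09 to 0.46) had the smallest unadjusted p of the family, but Rbfox2 KO 1 was the highest liver, and without it the log2 fold change was 0.06. Serpinb1a (ENSMUSG00000044734, chromosome 13, 32842092 to 32851185, minus strand), an inhibitor of neutrophil elastase, had 17.1, 8.05, 5.62, 6.12 and 3.34 CPM in WT 1 to 5 and 4.49, 7.67 and 4.34 CPM in Rbfox2 KO 1 to 3. Its log2 fold change, -0.55 ± 0.50 (SE, 95% interval -1.71 to 0.60), was the lowest of the family, and without WT 1, the highest liver, it was -0.08.

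Serpinb8 (ENSMUSG00000026315, chromosome 1, 107590006 to 107610484, plus strand) had 4.21, 3.17, 1.79, 2.69 and 2.93 CPM in WT 1 to 5 and 5.33, 2.01 and 2.13 CPM in Rbfox2 KO 1 to 3, with log2 fold change 0.10 ± 0.36 (SE), 95% interval -0.70 to 0.89. Rbfox2 KO 1 was the highest, and without it the log2 fold change was -0.52. Serpinb9, the inhibitor of granzyme B that protects cells of the immune system, was at 4.41 to 7.98 CPM over the 8 livers, and Serpinb6b at 1.10 to 2.26 CPM, with a log2 fold change of -0.12 ± 0.25 (SE, 95% interval -0.68 to 0.45) that was -0.40 without Rbfox2 KO 1. The 8 neutrophil markers summed to 2.10 to 2.81 CPM in WT and were highest in Rbfox2 KO 1 at 5.99 CPM, with 2.63 and 2.71 CPM in Rbfox2 KO 2 and 3. Kupffer cell and macrophage markers summed to 236 to 267 CPM in WT and to 324, 246 and 324 CPM in Rbfox2 KO 1 to 3, and 8 lymphocyte markers to 1.90 to 10.3 CPM in WT and 2.01 to 3.42 CPM in Rbfox2 KO. Their part in the clade B values was not tested.

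**Figure D3:**
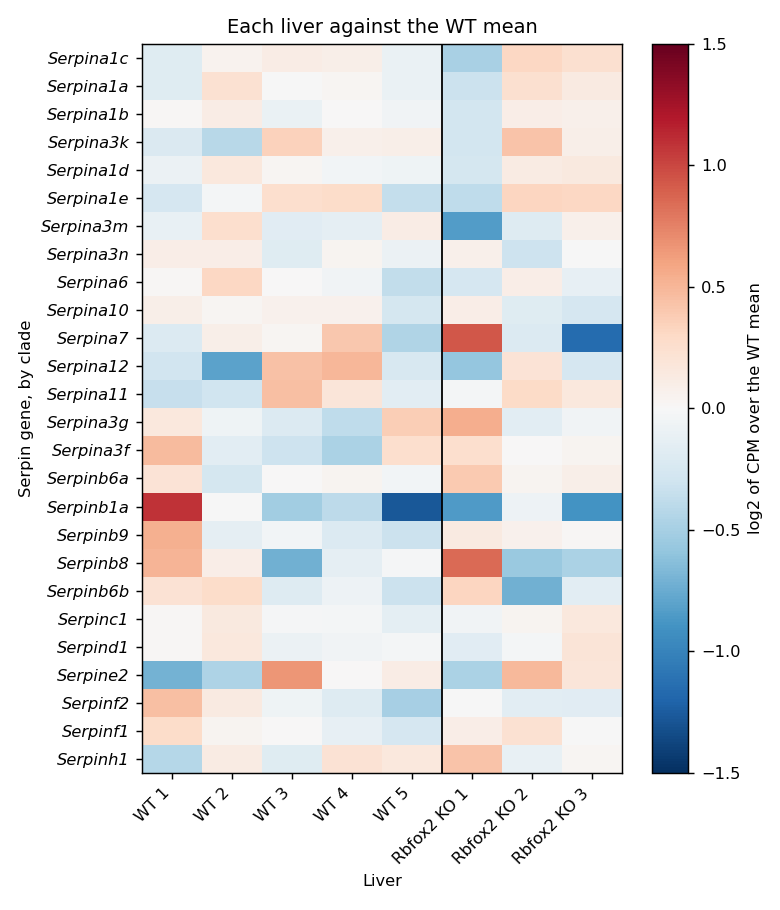
Level of the 26 tested serpin genes (rows, by clade) in each liver (columns, WT left of the line) as the log2 of its CPM over the mean of the 5 WT livers; red is above and blue below that mean. Rbfox2 KO 1 is below the WT mean for the abundant Serpina1 genes and above it for Serpina7 and Serpinb8, while Rbfox2 KO 2 and 3 are on the opposite sides.

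Rbfox2 KO 1 was the highest of the 8 livers for 7 and the lowest for 7 of the 26 tested serpin genes. WT 5 was also the lowest for 7, and WT 1 the highest for 6. Of the 14 members over 100 CPM, WT 5 was lowest for 5, and Rbfox2 KO 1 was lowest for 7 and highest for 1. Serpina1a to Serpina1e, near-identical copies that may share reads, are among the 7 that were lowest in Rbfox2 KO 1. Of the 10 members under 20 CPM, Rbfox2 KO 1 was lowest for 0 and highest for 5. The result over 100 CPM depends on the scaling: with library totals Rbfox2 KO 1 was lowest for 1 and highest for 5 of the 14. On that scale WT 3, the library with the smallest TMM factor, was lowest for 9. For the 10 members under 20 CPM, Rbfox2 KO 1 was highest for 7 with library totals. The SE was smallest for the abundant members. Among members over 100 CPM the SE of the log2 fold change ran from 0.11 to 0.21 with a median of 0.15, and among those under 20 CPM from 0.13 to 0.50 with a median of 0.22. The 2 members in between, Serpina7 and Serpina12, had a median SE of 0.36, above both groups. The coefficient of variation among WT livers had medians of 10.2% over 100 CPM, 29.3% in between and 25.3% under 20 CPM.

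Levels of different genes were compared per kilobase of exon. In CPM per kilobase in WT (SD, n = 5), the order began with Serpina1c at 4553 ± 392, Serpina1a at 3069 ± 335, Serpina1d at 2731 ± 199, Serpina1b at 2359.8 ± 125, Serpina3k at 2305 ± 465 and Serpina1e at 1205 ± 236. Serpina1b and Serpina3k did not differ beyond their spread. Because reads may fit several Serpina1 copies, the order among these copies is uncertain. After a step of several fold came Serpina3m at 183 ± 23.5, Serpinf2 at 178 ± 43.9, Serpinf1 at 154 ± 21.3, Serpinc1 at 141 ± 10.5 and Serpind1 at 139.8 ± 9.50 CPM per kilobase, each within the spread of its neighbours. The lowest were Serpinb8 at 0.617 ± 0.182 and Serpine2 at 0.610 ± 0.230 CPM per kilobase, again without a difference beyond their spread. With the longest transcript as length, Serpina1b moved from the fifth to the third place and Serpinc1 from the tenth to the seventh in the mean over the 8 livers, and Serpine2 rose from 0.629 to 1.54 CPM per kilobase, above Serpinb8.

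Of the 59 genes, 33 were not tested. Zero reads in all 8 livers were listed for 17, of which 14 belong to clade B (such as Serpinb3a to Serpinb3d, known from squamous epithelia, and Serpinb9c to Serpinb9g) and 3 to clade A (Serpina1f, Serpina16 and Serpina3j). Another 5 had under 3 reads in every library, namely Serpina3a, Serpinb12, Serpinb1b, Serpinb6c and Serpine3. The remaining 11 reached 3 reads in a library, namely Serpina3b, Serpina3c, Serpina3i, Serpina5, Serpina9, Serpinb1c, Serpinb2, Serpinb7, Serpinb9b, Serpini1 and Serpini2. The neuronal serpin Serpini1 (neuroserpin, ENSMUSG00000027834, chromosome 3, 75557547 to 75643495, plus strand) had the most, with 1, 3, 8, 6 and 12 reads in WT 1 to 5, and 16, 4 and 5 reads in Rbfox2 KO 1 to 3. Serpini2, known from pancreas, had 4 reads in Rbfox2 KO 1 and 0 in the other 7 livers, the library in which the pancreatic acinar genes were high; the source of these reads was not tested.

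**Figure D4:**
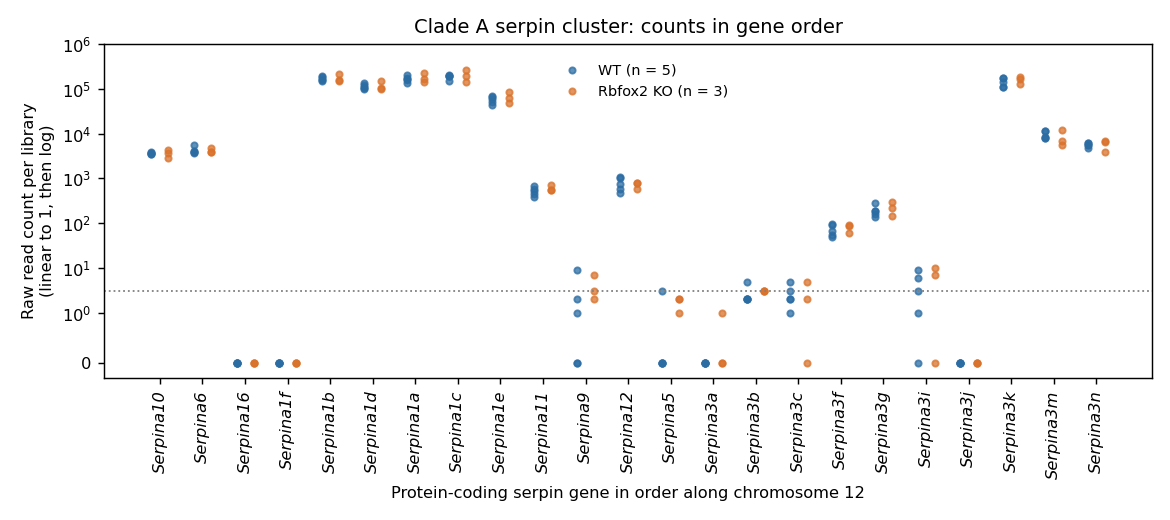
Raw read counts of the 23 protein-coding serpin genes on chromosome 12 in gene order, for each liver; the y axis is linear from 0 to 1 and logarithmic above, and the dotted line marks 3 reads. Genes with the most reads stand beside genes at 0 or a few reads, with Serpina16 and Serpina1f next to the abundant Serpina1 genes, and the points of the genotypes overlap for each gene with reads in both.

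The clade A cluster on chromosome 12 shows this contrast within a single stretch of genes. Of its 23 serpin genes, 14 were tested, 3 had 0 reads and 6 had a few. Genes without reads lie next to abundant ones: Serpina16 and Serpina1f lie between Serpina6 and Serpina1b, and Serpina3j lies beside Serpina3k.

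The proteases, cofactors and clients with which serpins work were examined as 5 lists. Of 65 tested genes, 0 passed an adjusted p of 0.05 by edgeR with Benjamini-Hochberg adjustment or by DESeq2, and 6 had an unadjusted edgeR p under 0.05, or 9.23% beside 4.74% of all tested genes, with 4 higher and 2 lower in Rbfox2 KO. This count moved in both directions with single livers. It was 3 of 65 (4.62%, beside 3.83% of all genes) without Rbfox2 KO 1. Without Rbfox2 KO 3 it was 3 of 66 (4.55%, beside 5.83%), and without Rbfox2 KO 2 it was 11 of 66 (16.7%, beside 6.46%). With a WT liver left out, it ran from 4 of 64 (6.25%, beside 3.52%, without WT 2) to 8 of 65 (12.3%, beside 4.76%, without WT 5). Of the 15 coagulation and fibrinolysis proteases 2, F11 and Hgfac, were lower at that level. Hgfac was at 85.4 to 111 CPM in WT and 74.7 to 84.3 CPM in Rbfox2 KO (log2 fold change -0.27 ± 0.10 SE, edgeR adjusted p = 0.954). F11, which encodes coagulation factor XI, a target of antithrombin and other serpins, was at 16.7 to 20.1 CPM in WT and 13.0 to 17.3 CPM in Rbfox2 KO (log2 fold change -0.32 ± 0.11 SE, edgeR adjusted p = 0.899).

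Of 12 genes listed as neutrophil, mast cell and lymphocyte proteases, 4 were tested and 2, Gzma and Ctsl, were higher at the unadjusted level. Ctsl, which encodes cathepsin L, was at 302 to 433 CPM in WT and 335 to 554 CPM in Rbfox2 KO, and whether leukocytes are its source was not tested. Gzma, which encodes granzyme A, a target of antithrombin, was at 0.0887 to 0.406 CPM in WT and 0.354 to 0.784 CPM in Rbfox2 KO (log2 fold change 1.73 ± 0.52 SE, edgeR adjusted p = 0.825). In WT 2 to 5 it was at 0.0887 to 0.140 CPM, near the level of 3 reads (0.0793 to 0.121 CPM). Of 20 other plasma inhibitors 1 was higher, Itih2, a heavy chain of inter-alpha-trypsin inhibitor, at 598 to 665 CPM in WT and 688 to 838 CPM in Rbfox2 KO (log2 fold change 0.29 ± 0.11 SE, edgeR adjusted p = 0.904). Of 16 cofactors, receptors and hormone partners 1 was higher, Pros1, which encodes protein S, at 34.1 to 40.5 CPM in WT and 39.7 to 57.6 CPM in Rbfox2 KO (log2 fold change 0.39 ± 0.12 SE, edgeR adjusted p = 0.864).

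Of the 10 collagen clients of Serpinh1, 0 had an unadjusted p under 0.05. The smallest was that of Col1a1, at 1.33 to 2.62 CPM in WT and at 10.5, 1.38 and 1.73 CPM in Rbfox2 KO 1 to 3, so that its log2 fold change of 1.22 ± 0.64 (SE) came with 1 liver far above the rest.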

How the data were processed

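Liver RNA of 5 WT and 3 Rbfox2 KO mice was sequenced as poly(A)-selected, 100-base paired-end libraries. Per the labels the authors processed reads with CASAVA 1.8.4 (the study's methods name another version), aligned them strand-specifically to GRCm38 with TopHat2 2.0.11 and summed them by gene with featureCounts. The deposited values were raw read counts per Ensembl gene. Use of strand and of reads with several alignments in counting is not given in the sources used here, so near-identical or overlapping genes are uncertain.

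The members and gene lists were chosen with earlier results of these data known. Symbols came from GENCODE M21 (45229 of 46078 genes matched), and 0 sample columns were left without a sample. Genes were filtered with filterByExpr (14654 kept), scaled by TMM and tested by robust quasi-likelihood in edgeR 4.0.16 (R 4.3.3), without terms other than genotype and with Benjamini-Hochberg adjustment over all tested genes at 0.05. Alternatives were DESeq2 size factors, library totals, no filter, 10 counts in every library, the Wald test of DESeq2 1.42.0, limma-voom (limma 3.58.1), the sample number as a block and leaving out each liver. Levels per kilobase used the union of exons.

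Total counts were 24829693 to 37823155 per library, and 3 counts equalled 0.0793 to 0.121 CPM, a floor that covers counting error alone, because no molecular identifiers told duplicate reads from independent molecules. Separate mice per library are implied but litters and cages are not given, so p-values measure the spread between these samples. No pair of libraries of the same genotype agreed within sampling noise (chi-square per degree of freedom 41.8 to 318). Tested on simulated data with 14654 genes for this comparison, the procedure recovered 53 of 100 altered genes at a log2 change of 1 and 90 of 100 at 2, and 6 of its 149 calls were unaltered genes.

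Named with values in every liver were, by rule, members past a test or without overlap between groups (none), the 10 most abundant, the most abundant of each clade, the 5 with the largest coefficient of variation among WT livers, and all Serpina1 genes. Serpina7 was added after its values were seen. In each list of partner genes, the gene with the smallest p was named, and Ctsl and Hgfac were added after their values were seen. Promoters came from RefSeq tables of GRCm38.p6, which matched 52 of 59 members. Of the genes that the naming rule or the lists would take, 2 are not reported here.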

Additional observations from a re-analysis of the deposited data

Results flagged for a closer look

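Of the tested serpin genes, 2 had 1 WT liver apart from the other 4, measured as the gap to the nearest liver over the whole range of the 5, beyond Dixon's critical value of 0.71. Serpina10 was lowest in WT 5, at 104 CPM against 127 to 132 CPM, a gap of 0.807. Serpinb9 was highest in WT 1, at 7.98 CPM against 4.41 to 5.38 CPM, a gap of 0.728. Chance flags about 1 in 20 groups, or 1.30 of the 26 genes examined.

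Among genes with too few reads for the comparison, 3 reached the level of 3 reads in Rbfox2 KO 1 and in no WT liver. Serpinb9b had 3 reads there and 0 to 1 in the WT livers. Serpinb2 had 4 reads there and 0 to 2 in the WT livers, and Serpini2 had 4 reads there and 0 in the WT livers. The exons of Serpinb2 share 7.52% of their 100-base windows with Serpinb10, so its reads are uncertain.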

How the results depend on the processing

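No serpin gene and no partner gene passed the adjusted threshold under any alternative run. Over all genes the count was 0 by edgeR, 59 with the DESeq2 Wald test and 6 with no filter on low counts, and 0 without each liver in turn. With no filter, 42 serpin genes were fitted and Serpinb1c, at 0 to 5 reads per liver, had a log2 fold change of -2.09 (edgeR adjusted p = 0.901). The median log2 fold change of the serpin genes was 0.06 and was 0.147 with library totals, where that of all genes was 0.12. It ran from -0.00941 (without Rbfox2 KO 3) to 0.0524 when 1 liver was left out.

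No value that changed sign had passed a test. Library totals moved the median of all genes from 0.000953 to 0.116. The values whose sign they turned had lain between -0.115 (Serpinb6b) and -0.0211 (Serpina1b) with TMM factors. With library totals they were those of Serpina10 (0.0446), Serpina6 (0.0221), Serpina1b (0.0674), Serpina3n (0.0571), Serpinb6b (0.0434) and Serpinf2 (0.0243). With limma-voom the sign turned for Serpina7 (-0.112). Sample numbers occur in both groups, but nothing ties equal numbers together, and deviations from the group means correlated by 0.163, 0.0484 and 0.170 for the 3 same-numbered pairs, where WT 3 and Rbfox2 KO 2 reached 0.371. With the number as a replicate block the median was -0.00698, 0 serpin genes passed and the sign turned for Serpina1d (-0.0333), Serpina7 (-0.111), Serpinb8 (-0.00989), Serpinb9 (-0.0508), Serpinc1 (-0.00326) and Serpind1 (-0.0245).

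Leaving out 1 liver turned the sign of 16 genes at least once, with 27 turned and 181 unturned values in all. Their log2 fold changes ran from -0.075 to 0.188 for Serpina1a, -0.0886 to 0.0834 for Serpina1b, -0.0776 to 0.269 for Serpina1c, -0.0619 to 0.128 for Serpina1d, -0.112 to 0.273 for Serpina3g, -0.0856 to 0.26 for Serpina3k, -0.154 to 0.0352 for Serpina3n, -0.188 to 0.00536 for Serpina6 and -0.61 to 0.471 for Serpina7. They ran from -0.401 to 0.0995 for Serpinb6b, -0.521 to 0.331 for Serpinb8, -0.00548 to 0.0972 for Serpinc1, -0.0957 to 0.0831 for Serpind1, -0.108 to 0.338 for Serpine2, -0.212 to 0.0208 for Serpinf2 and -0.0494 to 0.236 for Serpinh1. The cause of these moves was not tested. Where a liver left out leaves 2 in the Rbfox2 KO group, the spread is that of both groups pooled.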

Other observations

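Serpin levels were set beside the summed CPM of the 14 male-biased, growth hormone-responsive genes over the 8 livers, a relation chosen after the data were seen. Pearson's r was positive for 13 of 26 serpin genes with TMM scaling. It had an unadjusted p under 0.05 by an exact permutation test for 8, and 0 passed Benjamini-Hochberg adjustment over the 26, with a smallest adjusted permutation p of 0.0957. Spearman's rho passed for 0 genes with either scaling, with smallest adjusted permutation p of 0.188 (TMM) and 0.0557 (library totals). With library totals r was positive for 6, its sign differed from that with TMM for 7, and 10 passed the adjustment, all with r below 0 (-0.916 to -0.798). Without Rbfox2 KO 1 and WT 3, the livers farthest from the median of the summed list, r of these 10 ran from -0.834 to -0.324. The outcome depends on the scaling and partly on those 2 livers. WT 3, highest for the list, had the smallest TMM factor (0.821), and Rbfox2 KO 1, lowest for it, the largest (1.29). With library totals, a relation to the list and an effect of the scaling therefore cannot be told apart.

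Serpina4-ps1, a pseudogene outside the 59 members, had 1.48, 2.78, 19.0, 14.0 and 4.97 CPM in WT 1 to 5 and 3.67, 7.35 and 2.55 CPM in Rbfox2 KO 1 to 3.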
